A study of Arabidopsis thaliana with 28 samples.

Results

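AT5G07860 and AT5G07870 are directly neighbouring genes of Arabidopsis thaliana, taken here as a pair of acyltransferase genes. The platform annotation pairs each with 1 probe set, so the pair makes up 2 of the 13286 genes that had a probe set of their own here, among 22746 probe sets tested. They were chosen by their signals on these arrays, which were higher on hydrogen peroxide (H2O2) than on control medium. Their values on H2O2 against control medium are therefore given as a description, without a test. Zone and time on control medium were not criteria of that choice and were tested. The control arrays matched in time to H2O2 were, however, the lower side of the comparison behind it. The time test sets those arrays against the earliest controls, so it is not independent of the choice. The zone test uses those arrays as well.

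The roots came from Columbia-0 seedlings of 5 days that carried no transgene or mutation named in the labels. Seedlings stood on MS medium with 1 mM H2O2 for 1, 3 or 6 h, or on MS medium without H2O2, sampled at 0, 1, 3 and 6 h. A razor blade under the microscope separated the meristematic zone, where cells divide, from the elongation zone, where cells lengthen. Each of the 14 groups had 2 biological replicates of 30 roots, hybridised to 28 Affymetrix ATH1 arrays after 2 cycles of amplification. Values are linear array signals, and differences are on the log2(signal + 16) scale, which understates changes of dim genes.

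Acyltransferases of the plant BAHD family move an acyl group from coenzyme A to an alcohol or amine, and the family makes lignin precursors, suberin and wax parts, and acylated pigments and polyamines. From general knowledge of the Arabidopsis genome both genes, and AT5G07850 just before them, belong to this family. The gene table used for names gives no function for any of these 3 loci, and their substrates are not stated here. H2O2 is both a stress agent and a signal that acts on the balance of division and elongation in the root tip.

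Marker genes differed between the zones in the direction of the labels. Some of these markers were known from an earlier account of these data, so this is not an independent check of the labels. All 5 measured of 14 meristem markers, among them the mitotic kinases AUR1, AUR2 and AUR3, were lower in the elongation zone, with summed signals of 1291 to 2351 in meristematic and 213 to 461 in elongation control arrays. All 8 elongation markers, among them UPB1, were higher there, with sums of 194 to 544 and 10826 to 26966. The 2 measured of 8 root hair markers, EXPA7 and EXPA18, were also higher there, and no probe set was listed for the 4 root cap markers. The sections are bulk tissue, so fewer cells of a type and less RNA per cell cannot be told apart. On the second principal component of all arrays (4.35% of the variance) the 1 h control arrays numbered 1 lay at -2.39 and 6.86, whereas the 6 other arrays of 1 h lay between -24.8 and -39.4. Values that rest on the 1 h controls are given below also without the arrays numbered 1 or those numbered 2.

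Both genes were well measured, and both differed between the media in the same direction in every zone and time. In meristematic sections on control medium AT5G07860 read 344 and 455 at 0 h, 325 and 616 at 1 h, 211 and 401 at 3 h, and 243 and 380 at 6 h. On H2O2 the same sections read 996 and 1426 at 1 h, 853 and 1390 at 3 h, and 634 and 709 at 6 h. The 2 media did not overlap at any matched time. The 1 h arrays on H2O2 lay above the 6 h arrays on H2O2, an order whose share over all probe sets is not given here.

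In elongation sections on control medium AT5G07860 read 457 and 555 at 0 h, 255 and 734 at 1 h, 331 and 689 at 3 h, and 353 and 622 at 6 h. On H2O2 it read 1521 and 2269 at 1 h, 1414 and 1661 at 3 h, and 819 and 1004 at 6 h. Here too the media did not overlap at a matched time. The H2O2 arrays of 1 h again lay above those of 6 h, with no share over all probe sets given. In order of group means, all 6 H2O2 groups of AT5G07860 stood above all 8 control groups, whichever the zone. The step between the elongation H2O2 group of 6 h and the meristematic H2O2 group of 6 h was the only one of neighbouring groups in that order whose arrays did not overlap.

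AT5G07870 was ordered first by zone. In meristematic control sections it read 169 and 153 at 0 h, 149 and 338 at 1 h, 162 and 203 at 3 h, and 190 and 138 at 6 h. On H2O2 these sections read 580 and 649 at 1 h, 362 and 504 at 3 h, and 349 and 370 at 6 h. Every H2O2 array thus lay above every control array of this zone. The same held for this gene in the elongation zone and for AT5G07860 in each zone. The genes were chosen for this difference, and the share of all probe sets with such a separation is not given here.

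In elongation control sections AT5G07870 read 1018 and 937 at 0 h, 401 and 875 at 1 h, 663 and 913 at 3 h, and 578 and 899 at 6 h. On H2O2 they read 2101 and 2769 at 1 h, 1617 and 1964 at 3 h, and 1291 and 1486 at 6 h. The 3 elongation groups on H2O2 and the 4 elongation control groups took the first 7 places by mean, and no arrays overlapped between neighbours down to the 0 h control. The 7 meristematic groups followed, with 614.5 ± 48.1 (SD, n = 2) on H2O2 at 1 h as the highest, next to 638 ± 335 (n = 2) in the elongation control group of 1 h, whose arrays spanned it.

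**Figure D1:**
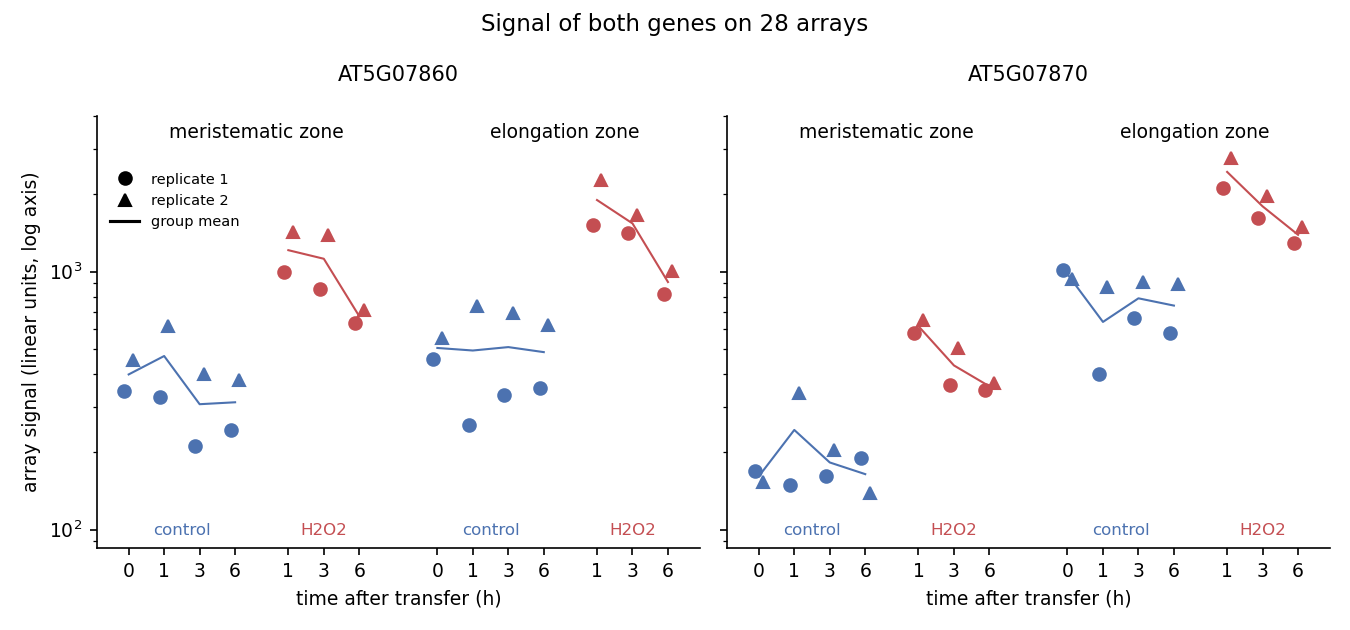
Array signal (linear units on a log axis) of AT5G07860 and AT5G07870 on each of the 28 arrays, by zone, medium and time. Circles are replicate 1, triangles replicate 2 and lines join group means. The H2O2 arrays lie above the control arrays of the same zone and time in both genes, and AT5G07870 has its control arrays at 138 to 338 in the meristematic and 401 to 1018 in the elongation zone.

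The media differed by similar amounts for both genes. Averaged over 1, 3 and 6 h and both zones, AT5G07860 was higher on H2O2 by 1.49 ± 0.18 (SE) and AT5G07870 by 1.29 ± 0.13. The within-array difference between these values was 0.20 ± 0.12 (SE). Without the 1 h control arrays numbered 1 the averages were 1.30 and 1.10, and without those numbered 2 they were 1.69 and 1.47. At 1 h AT5G07860 and AT5G07870 were higher by 1.38 and 1.38 in the meristematic zone and by 2.06 and 1.99 in the elongation zone. At 3 h the values were 1.84 and 1.17 in the meristematic zone and 1.65 and 1.18 in the elongation zone. At 6 h they were 1.10 and 1.07, and 0.93 and 0.93. The genes thus stood within 0.1 of each other at 1 and 6 h. At 3 h AT5G07860 had the larger value, by 0.67 ± 0.30 (SE) in meristematic and 0.47 ± 0.30 in elongation sections. The 3 h value of AT5G07860 in elongation sections was 1.14 without the control array numbered 1 and 2.16 without that numbered 2. With 1 array left out its 6 h value there ran from 0.53 to 1.32, and its meristematic 3 h value from 1.41 to 2.28. Both comparisons share their control arrays, and the genes were picked for this difference. Whether the probe set of 1 gene also binds RNA of the other was not checked.

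Taken between arrays of the same replicate number, the difference between media was above 0 in 12 of 12 cases for each gene. It ran from 0.68 to 2.50 for AT5G07860 and from 0.72 to 2.34 for AT5G07870. Of all probe sets, 0.141% had both H2O2 arrays above both control arrays at every time in both zones, as these 2 did (0.677% for the meristematic and 0.906% for the elongation zone alone), and the choice of the genes fixes that outcome. The difference between zones in the H2O2 value, as a mean over times, was 0.10 ± 0.36 (SE) for AT5G07860 and 0.16 ± 0.27 for AT5G07870, given as a description.

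The difference between media at 6 h minus that at 1 h was -0.70 ± 0.44 (SE) for AT5G07860 and -0.69 ± 0.32 for AT5G07870, as a mean over zones and as a description. These values rest on the 1 h controls. Without the 1 h control arrays numbered 1 the values were -0.11 and -0.14, and without those numbered 2 they were -1.29 and -1.24. At 1 h in the elongation zone the difference between media was 1.32 without the control array numbered 1 and 2.79 without that numbered 2 for AT5G07860, and 1.45 and 2.54 for AT5G07870. In the meristematic zone it was 0.93 and 1.82 for AT5G07860, and 0.83 and 1.93 for AT5G07870. The signals on H2O2 alone do not use those controls, but their 1 h arrays share the shift on the second principal component. There the 1 h arrays on H2O2 lay between -24.8 and -37.7 and the 6 h arrays on H2O2 between 3.09 and 17.3. The 1 h control arrays numbered 2, at -32.1 and -39.4, read higher than those numbered 1 in both genes and zones. The part of this shift in the signals on H2O2 was not tested. Between 1 h and 6 h on H2O2 the mean of AT5G07860 went from 1895 ± 529 to 911 ± 131 in the elongation zone and from 1211 ± 304 to 671 ± 52.6 in the meristematic zone (SD, n = 2 each). The mean of AT5G07870 went from 2435 ± 473 to 1389 ± 138 and from 614.5 ± 48.1 to 359 ± 14.8. Summed meristem markers were 1117 to 1883 in meristematic H2O2 arrays and 157 to 324 in elongation H2O2 arrays, ranges that overlap those on control medium. Summed elongation markers were 287 to 959 in meristematic and 14672 to 28688 in elongation H2O2 arrays, so in meristematic sections the range overlapped that on control medium but reached higher. Summed root hair markers of meristematic sections were 19.2 to 35.2 on H2O2 and 20.96 to 51.1 on control medium. The part of these markers in the media difference was not tested.

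**Figure D2:**
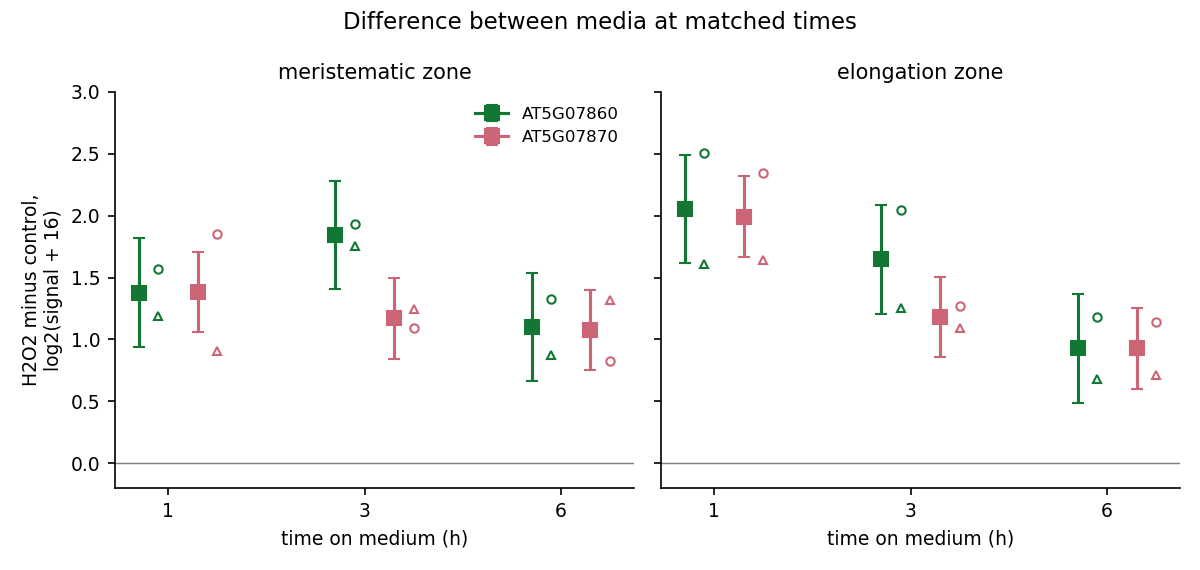
Difference between H2O2 and control medium on the log2(signal + 16) scale at 1, 3 and 6 h (placed as categories), in the meristematic (left) and elongation zone (right). Squares with bars are estimates ± SE, and open circles and triangles are the differences within replicate number 1 and 2. All open symbols lie above 0, from 0.68 to 2.50 for AT5G07860 and from 0.72 to 2.34 for AT5G07870.

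On control medium the zones differed more for AT5G07870 than for AT5G07860. AT5G07870 was higher in the elongation zone by 1.97 ± 0.16 (SE; limma adjusted p = 1.04e-09), a fold of 3.92. Its signal was 786 ± 214 in elongation and 188 ± 64.4 in meristematic control arrays (SD, n = 8 each), and the lowest elongation array, at 401, lay above the highest meristematic array, at 338. Of all probe sets 58.3% were called between zones, 26% of them higher and 32.3% lower in the elongation zone as shares of all, so a zone call is common on these arrays. For 13.9% of probe sets all elongation arrays lay above all meristematic arrays.

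AT5G07860 had 500 ± 178 in elongation and 372 ± 127 in meristematic control arrays (SD, n = 8 each), and the ranges overlapped widely. Its difference was 0.39 ± 0.22 (SE; 95% interval -0.06 to 0.85; limma adjusted p = 0.135). Median centring of the arrays, which moved the median of all probe sets from -0.02 to 0.26, gave 0.67 for AT5G07860, which passed (limma adjusted p = 0.00986). Between sections of the same number and time AT5G07860 was higher in the elongation zone in 3 of 4 cases numbered 1 and 4 of 4 numbered 2. Whether such sections came from the same roots is not stated in the labels. With the replicate number as a block the 0.39 passed (limma adjusted p = 0.00511), as it did with each same-numbered pair of sections as a block (limma adjusted p = 0.000222). Without the elongation control array of 1 h numbered 1 it was 0.58 and also passed (limma adjusted p = 0.0173).

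By time, AT5G07870 was higher in the elongation zone at 0 h (2.49 ± 0.32 SE), 1 h (1.34 ± 0.32), 3 h (2.01 ± 0.32) and 6 h (2.05 ± 0.32), with limma adjusted p of at most 0.00205. Of all probe sets 40.7%, 42.4%, 41.9% and 42.9% were called at these times. The 1 h value did not pass without the meristematic control array numbered 1 (0.78, limma adjusted p = 0.087) or without the elongation control array numbered 2 (0.79, limma adjusted p = 0.0825). AT5G07860 gave 0.34, -0.04, 0.68 and 0.60 (each ± 0.44 SE), and none passed.

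Within the same arrays the zone difference of AT5G07860 minus that of AT5G07870 was -1.58. The log2 value of AT5G07860 minus that of AT5G07870 ran from 0.33 to 1.48 in meristematic and from -1.13 to -0.25 in elongation control arrays, without overlap. An exact permutation test over the 12870 ways to split these 16 arrays gave p = 0.000155 (2-sided), the smallest it can give. It treats the arrays as independent over times and replicate numbers. Sections of the 2 zones with the same number, medium and time deviated together with r from 0.058 to 0.44 over probe sets, so this p value is approximate. On these arrays the zone differences of the pair were unequal. On H2O2 medium AT5G07870 was higher in the elongation zone by 1.96 ± 0.19 and AT5G07860 by 0.52 ± 0.25 (SE), given as a description.

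RNA quality, read from the 3′ over 5′ probe sets of GAPDH as a log2 ratio, moved with the zone. It was 0.43 ± 0.18 in meristematic and 0.03 ± 0.22 in elongation control arrays (SD, n = 8 each), and its part in the zone difference was not tested. On H2O2 it was 0.54 ± 0.13 and -0.01 ± 0.15 (SD, n = 6 each). The same ratio of actin was larger, at 4.36 ± 0.39 in meristematic and 4.04 ± 0.18 in elongation control arrays (SD, n = 8 each). For H2O2 arrays the actin ratio was 4.13 ± 0.21 and 4.08 ± 0.17 (SD, n = 6 each). Its part was not tested either.

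**Figure D3:**
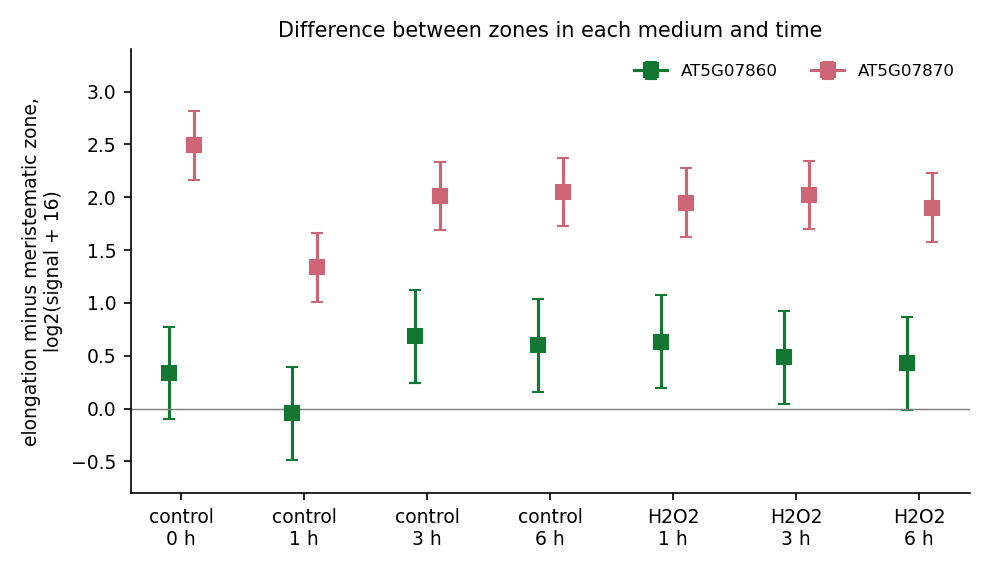
Elongation minus meristematic zone on the log2(signal + 16) scale (estimate ± SE) in each medium and at each time. AT5G07870 lies between 1.34 and 2.49 throughout, and AT5G07860 between -0.04 and 0.68.

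On control medium no change over time passed the test for either gene. The limma F test over 0, 1, 3 and 6 h gave adjusted p = 0.949 for AT5G07860 and 0.95 for AT5G07870 in the meristematic zone, where 0.365% of probe sets passed. In the elongation zone it gave 0.998 and 0.626, where 0.422% passed. The largest single value was that of AT5G07870 in the elongation zone at 1 h against 0 h, -0.70 (95% interval -1.38 to -0.02; limma adjusted p = 0.293). It was -0.16 (limma adjusted p = 0.817) without the 1 h control arrays numbered 1 and -1.25 (limma adjusted p = 0.0689) without those numbered 2. The intervals of these differences reach about 0.9 for AT5G07860 and 0.7 for AT5G07870 to either side of the estimate, so changes of that size could have gone unseen.

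The pair was next compared with the loci around it, using the order of genes in a RefSeq table (TAIR10.1). Of the 10 loci on either side, 10 of 20 had a listed probe set. None of them passed for H2O2 against control medium over both zones by limma (adjusted p 0.378 to 0.971), where 0.765% of all probe sets were called higher and 0.167% lower. An unadjusted limma p under 0.05 was found for 2 of these loci, with no share of all probe sets at that threshold given here. Differences of the 10 measured loci ran from -0.25 to 0.07, with a median of -0.05 beside -0.01 for all probe sets. The third family member of the row, AT5G07850, read at most 15.6 on any array, with a difference of -0.10 ± 0.08 (SE). Its signal stayed near the pseudocount, where a change in level barely moves the log2 value. On the other side AT5G07890, with signals of 59.5 to 152, had 0.05 ± 0.11. The gene between it and the pair, SNAP29, whose annotated span overlaps that of AT5G07870, was not analysed here.

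Between zones 4 of the 10 neighbours were called higher and 4 lower in elongation sections by limma, beside 26% and 32.3% of all probe sets. AT5G07820 was higher by 1.50 ± 0.16 (SE), and AT5G07950 (-1.35 ± 0.13), AT5G07900 (-1.31 ± 0.11) and AT5G07810 (-1.05 ± 0.12) were lower. AT5G07850 gave -0.07 ± 0.10. 

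**Figure D4:**
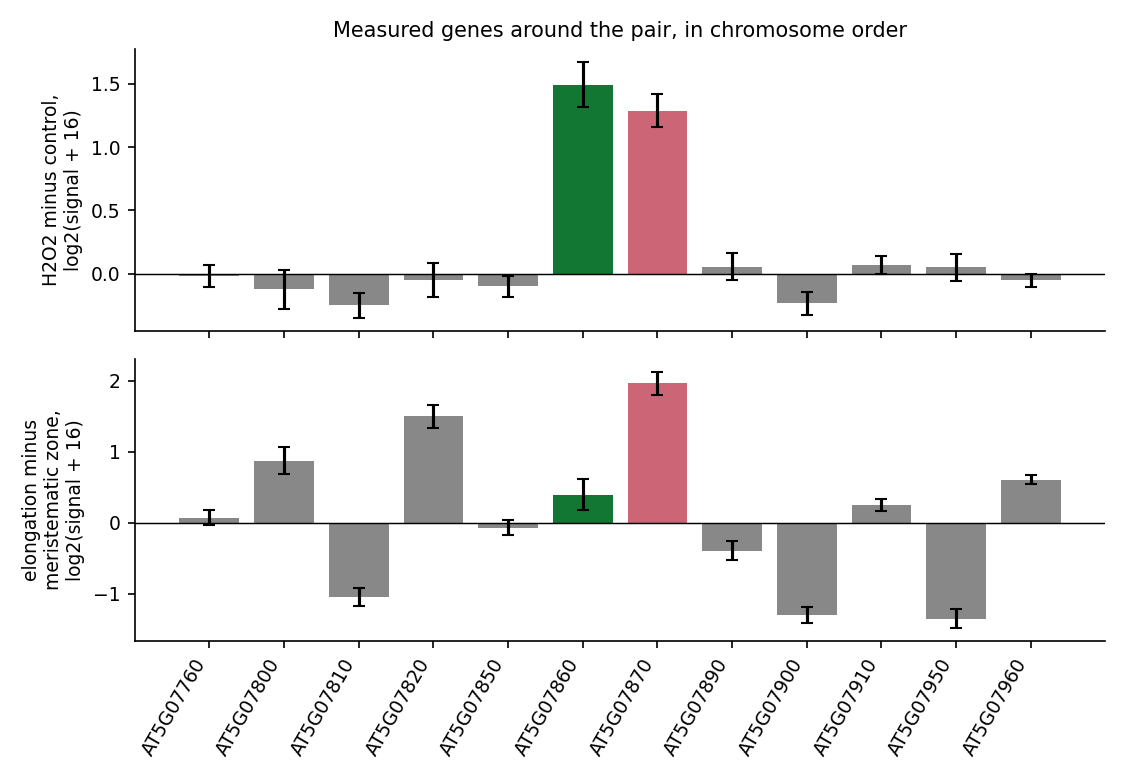
Measured genes within 10 loci of the pair in chromosome order (not to distance). Bars show estimates ± SE on the log2(signal + 16) scale for H2O2 minus control medium over both zones (top) and elongation minus meristematic zone on control medium (bottom). The pair stands at 1.49 and 1.29 at the top, where the other genes lie between -0.25 and 0.07, and was chosen for that difference.

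The wider BAHD family was read from a list of 60 loci written from general knowledge, of which 45 had a listed probe set. Apart from the pair, none of 43 members passed for H2O2 against control medium by limma, as a mean over both zones (0.932% of all probe sets called), in the meristematic (0.259%) or in the elongation zone (0.506%). An unadjusted p under 0.05 was found for 4, 1 and 3 of them, with no share of all probe sets at that threshold given here. Their differences over both zones ran from -0.45 to 0.29, with a median of -0.06 beside -0.01 for all probe sets. Of these 43 genes 25 stayed under a signal of 50 on every array. HCT, a hydroxycinnamoyl transferase of lignin precursor synthesis and a bright member of the family, gave 0.16 (adjusted p = 0.418).

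Between zones 11 of the 43 were called higher and 4 lower in elongation sections by limma, beside 26% and 32.3% of all probe sets. The other 28 were not called. The median difference was 0.08 beside -0.02 for all probe sets. AT5G01210 had the largest value, 2.62 ± 0.13 (SE; limma adjusted p = 5.96e-13), with signals of 18.1 ± 4.02 in meristematic and 202 ± 63 in elongation control arrays (SD, n = 8 each). AT5G47950 (1.46 ± 0.15), AT3G50280 (1.10 ± 0.14) and AT1G28680 (0.88 ± 0.11) were higher as well. AT5G67150 was lower (-1.03 ± 0.11), with 91.8 ± 14.3 in meristematic and 37.5 ± 12.1 in elongation control arrays. BAT1, which acts on brassinosteroids, AT1G24420 and SHT, a spermidine hydroxycinnamoyl transferase, were called lower too (-0.64 ± 0.20, -0.42 ± 0.11 and -0.41 ± 0.15), at mean signals of only 6.48 to 21.03 in either zone. Under median centring 23 were called higher and 1 lower, and BAT1, AT1G24420 and SHT did not pass. Without the 1 h controls numbered 2, BAT1 and SHT did not pass either (limma adjusted p = 0.0535 and 0.056), and SHT lost its call without any 1 of several single arrays (limma adjusted p 0.0571 to 0.085).

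Across the arrays the profiles of the pair were then set against other genes. Over the 14 group means the genes correlated with r = 0.75. On that measure AT5G07870 ranked 19 among 6476 genes in likeness to AT5G07860, and AT5G07860 ranked 1462 in likeness to AT5G07870. With the mean of its 7 groups taken from each zone, r was 0.97 and each gene ranked first for the other. This is a description over group means that share the difference between media for which both were picked. Binding of either probe set to RNA of the other gene was not checked, which applies to the replicate differences below as well. By Spearman's rho the value was 0.88 and the ranks were 2 and 1.

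The genes most like AT5G07860 over the group means were AT5G64250 (r = 0.93), AT5G14730 (0.90), AT1G21680 (0.83), AT4G01870 (0.83) and AT4G33940 (0.81). For AT5G07870 they were AT4G24160 (0.96), AT4G16190 (0.96), WRKY6 (0.94), AT3G44190 (0.93) and AT1G10350 (0.93). WRKY6 codes for a transcription factor, and the other names carry no function in the table used. With zone means removed AT5G64250, AT5G14730, AT4G24160 and AT4G16190 followed the pair in both lists. Between 1 and 2 of each 5 stayed among the first 5 by Spearman's rho. The zone value of AT4G16190 on control medium was 3.06, that of AT4G24160 1.41 and that of AT5G64250 0.24. The zone difference thus varied among genes that were picked for a like profile with zone means removed.

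The replicates gave a view of the pair that the group means did not enter. AT5G07860 was higher in replicate 2 than in replicate 1 in 14 of 14 groups, which held for 0.55% of all probe sets, and its replicate 1 minus replicate 2 averaged -0.63. AT5G07870 was higher in replicate 2 in 11 of 14 groups, a count that 9.63% of probe sets reached or passed, and its mean was -0.32. The median over all probe sets lay between -0.04 and 0.04 in each group. The replicate differences of the pair (replicate 1 minus 2) correlated over the 14 groups with Pearson's r = 0.70 (permutation p = 0.00531) and Spearman's rho = 0.71 (permutation p = 0.0059), the single relation tested. The permutation treats the 14 groups as independent. Sections of the 2 zones with the same number, medium and time deviated together with r from 0.058 to 0.44 over probe sets. These p values can therefore be too small. Of the other probe sets 1.31% had a higher r with AT5G07860.

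The correlation rests in part on few groups. Without the 2 groups farthest from the median of AT5G07860, r was 0.55 (n = 12). Without the 1 h control groups, where the replicates of AT5G07860 stood at -1.47 in the elongation and -0.89 in the meristematic zone and those of AT5G07870 at -1.10 in both, r was 0.46 and did not pass (permutation p = 0.128).

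**Figure D5:**
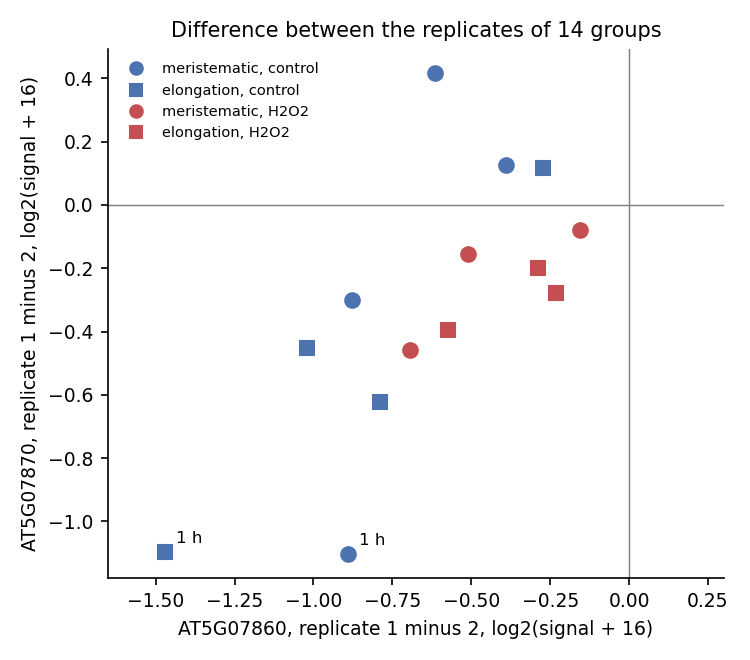
Replicate 1 minus replicate 2 of AT5G07860 (horizontal) and AT5G07870 (vertical) on the log2(signal + 16) scale, 1 point for each of the 14 groups, by zone and medium. All points lie below 0 for AT5G07860 and 11 of 14 do for AT5G07870, with the 1 h control groups, marked 1 h, at the lower end.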

How the data were processed

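The 28 deposited columns hold linear array intensity, 1 signal per probe set, with column names that match the samples. MAS5 and GCRMA both stand in the submitters' processing notes, with no role given to either. In the values every array has a mean of 250 once 2% of probe sets are set aside at either end, as global scaling leaves it. Array medians were 49.4 to 76.3. The number of arrays limits the precision.

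Of 22810 probe sets 64 controls were left out. The platform annotation, which can be old, lists 13513 with 1 gene and 503 with several. It does not list 8730. By gene ID 13436 matched a RefSeq locus, and the brightest probe set stood for a gene. The array values carry no genome build, so no coordinates are given. Probe sets can bind close relatives.

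The deposited intensity was taken as log2(signal + 16). All arrays entered 1 linear model of the 14 group means, fitted by limma 3.58.1 under R 4.3.3 (eBayes with intensity trend, 2-sided, 14 residual degrees of freedom), with Benjamini-Hochberg adjustment over 22746 probe sets and a threshold of 0.05. The script was tested on simulated data. SE and interval of the difference within arrays come from the spread within groups. The correlation used 100000 resamples. Members, lists, tests and markers were chosen with earlier results of these data known.

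Named besides the pair were the 5 genes with the highest r to each member among those whose group means span at least 1, the same with zone means removed, measured loci within 10 places, and up to 4 called BAHD genes per direction. HCT was named after its values were seen. Sections of different zones with the same number, time and medium deviated together with r from 0.058 to 0.44 (over 0.1 in 4 of 7 cases). The main model did not pair them, and fits with a block are given as alternatives. Alternatives were pseudocounts of 1 and 64, quantile normalisation, median centring, a filter of 50 in 2 arrays, no trend, a replicate block, fewer arrays in the fit and arrays left out.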

Additional observations from a re-analysis of the deposited data

How the results depend on the processing

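The zone call of AT5G07870 over all times, the permutation result on the zone differences and the media differences averaged over times kept their direction, and the first 2 their side of the threshold, under all settings run. With median centring the zone difference of AT5G07860 passed (0.67, limma adjusted p = 0.00986), and leaving out 1 array gave 0.21 to 0.58. The numbers 1 and 2 of different groups share no stated animal, batch or day. Replicate differences over probe sets correlated between groups with r from -0.11 to 0.44 (over 0.1 for 45 of 91 pairs of groups). With the replicate block the zone value of AT5G07860 (0.39) passed (limma adjusted p = 0.00511), also at 3 h and 6 h (0.68 and 0.60). With each same-numbered pair of zone sections as a replicate block, an alternative chosen after seeing the data, 0.39 passed too (limma adjusted p = 0.000222). No other call on the pair changed with the first block. The replicate block gave 234 and 415 calls for time on control medium in the meristematic and elongation zone, against 83 and 96 without it. Those counts were 164 and 895 without the 1 h control arrays numbered 1, 0 and 1 with only the compared arrays in limma (1695 and 1674 at an unadjusted p under 0.05), and 36 to 115 and 43 to 887 with 1 array left out; the meristematic count was 54 with no trend. Among other BAHD genes, 23 were called higher and 1 lower between zones with median centring. With the filter 1 was called lower, and 2 were without the 1 h controls numbered 2. That last setting also called 1 for H2O2 in elongation sections and 1 as a mean of both zones, and leaving out 1 array gave 0 to 1. The change of the media difference from 1 h to 6 h was -0.11 and -0.14 for AT5G07860 and AT5G07870 without the 1 h controls numbered 1, and -1.29 and -1.24 without those numbered 2. The correlation of replicate differences was 0.46 without the 1 h control groups (permutation p = 0.128). The zone mean without 1 h, an alternative chosen after seeing the data, gave 0.54 and 2.18. Apart from the median shift, causes were not tested. Signals below the pseudocount of 16, as for AT5G07850 and SHT, are compressed on the log2 scale.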
